A study of Mus musculus with 8 samples.

Results

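The G1 cyclins, their kinases and the inhibitors of those kinases were measured in cells labelled as beta cells and sorted from the pancreas of NOD mice, a strain prone to autoimmune diabetes. The set holds 10 genes, chosen by name among the 23366 genes of the deposited table: the D-type cyclins Ccnd1, Ccnd2 and Ccnd3, the E-type cyclin Ccne1, the kinases Cdk4 and Cdk6, the inhibitors Cdkn1a, Cdkn1b and Cdkn1c, and Cdkn2a. All 10 were found. The bottom population had 4 libraries (bottom 1 to bottom 4) and the top population 4 (top 1 to top 4). Both came from the pancreas of NOD mice of 8 to 10 weeks with no treatment named in the labels, and each library was amplified from about 1000 sorted cells. Batch 1 holds libraries 1 and 2 of either population, and batch 2 the others. The labels do not say what marker or gate separated bottom from top, nor whether each library had its own animals. The p-values therefore rest on library-to-library spread, some of which may be technical.

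A resting cell enters the cell cycle through D-type cyclins, which bind CDK4 or CDK6 and start the phosphorylation of the retinoblastoma protein. That releases E2F transcription factors, which turn on cyclin E and the genes of DNA synthesis. The INK4 proteins (among them p16, from Cdkn2a) block CDK4 and CDK6, and the Cip/Kip proteins p21, p27 and p57 (from Cdkn1a, Cdkn1b and Cdkn1c) bind cyclin and kinase complexes more broadly. In mice, cyclin D2 and CDK4 are known to be needed for the growth of beta cell mass after birth, and p16 is known to accumulate in beta cells with age.

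Libraries held 6657639 to 11262368 estimated counts. Levels are in CPM (counts relative to library size) after TMM scaling, which sets libraries on a common scale from the bulk of their genes. The label of beta cell went with the markers in top and against them in part in bottom. The 10 beta cell markers summed to 38729 to 81375 CPM in bottom and 344012 to 505634 CPM in top, with Mafa at 0 counts in all 8 libraries. The 5 delta cell markers summed to 33408 to 57801 CPM in bottom and 2650 to 5303 CPM in top, and the 2 PP cell markers to 11342 to 91991 CPM in bottom and 1196 to 2356 CPM in top. The 6 alpha cell markers overlapped, at 28987 to 141962 CPM in bottom and 65118 to 138107 CPM in top. In bottom, the means of 3 other islet hormones were each above that of the insulin gene Ins2, but this order varied by library. Gcg (glucagon) averaged 64046 CPM, Sst (somatostatin) 42609 CPM and Ppy (pancreatic polypeptide) 42459 CPM, against 39454 CPM of Ins2 and 8719 CPM of the insulin gene Ins1. In bottom 1 all 3 were above Ins2. In bottom 2 Ins2 was above Sst alone, and in bottom 3 above Gcg and Ppy. In bottom 4 Ins2 (47622 CPM) was above Gcg (41460 CPM), Sst (32046 CPM) and Ppy (17944 CPM). In top, Ins2 averaged 318155 CPM, above Gcg at 88639 CPM. In bottom 1 the PP sum (77084 CPM) and the delta sum (52685 CPM) exceeded the beta sum (38729 CPM). In bulk libraries such as these, fewer cells of a type and less RNA per cell cannot be told apart.

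Of the 10 genes, 7 had enough counts to be tested, and none differed between the populations at an adjusted p under 0.05 (edgeR quasi-likelihood test with the batch as a covariate, p adjusted over 11721 genes). Over all genes tested 0.444% were called, 0.282% higher and 0.162% lower in bottom. At an unadjusted p under 0.05 there was 1 of the 7, Ccnd2, where 10.3% of all genes tested passed. DESeq2 called 1 of the 7, Ccnd2, lower in bottom, where it called 5.23% of the genes it adjusted and 1.96% as lower. limma-trend called none of the 7 and 1.17% of all genes tested. The median log2 fold change (bottom over top) of the 7 was -0.21, and that of all genes tested was 0.003. Cdk6, Cdkn1c and Cdkn2a fell under the low-count filter, so the 7 are the more abundant members.

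**Figure D1:**
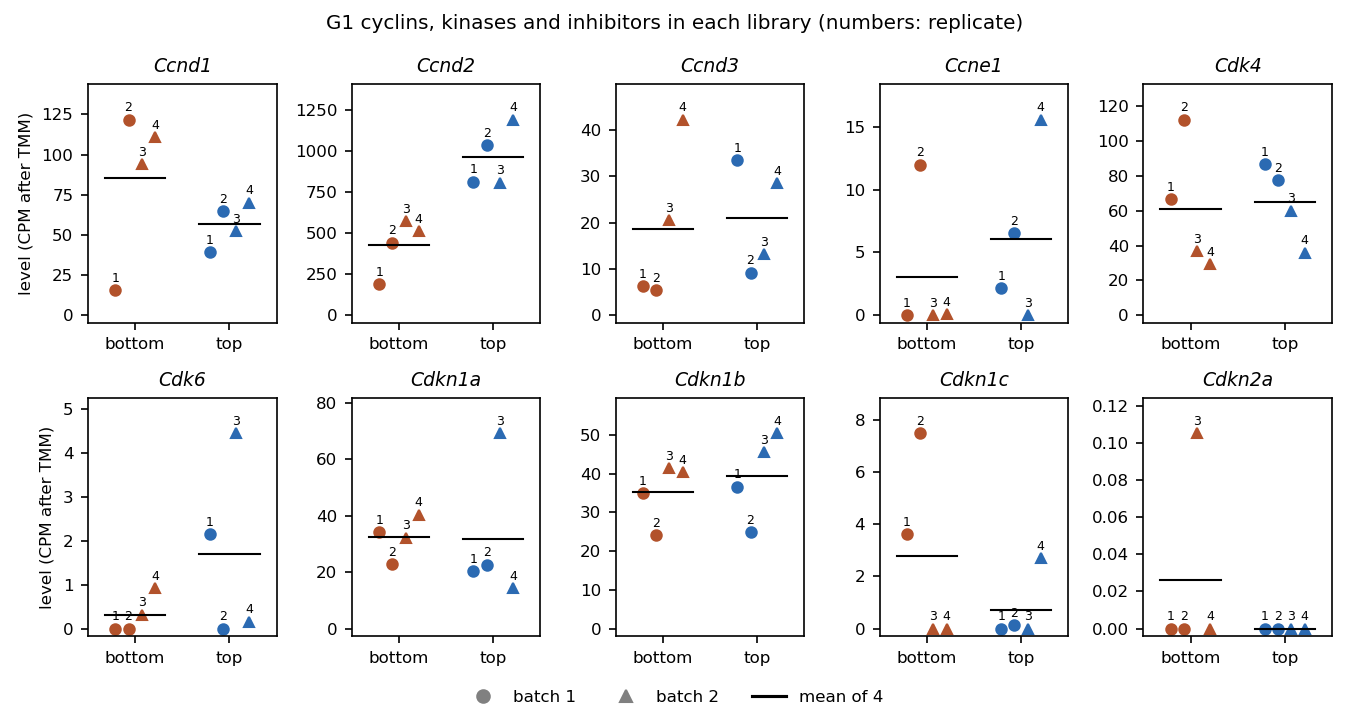
Level of each of the 10 genes in every library, in CPM after TMM scaling, on linear axes that differ between genes. Bottom libraries are on the left and top libraries on the right, circles are batch 1, triangles batch 2, numbers are replicates and lines the means of 4. Ccnd2 is the gene whose populations do not overlap, at 187 to 573 CPM in bottom and 808 to 1192 CPM in top.

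Ccnd2, which encodes cyclin D2, had 187, 442, 573 and 512 CPM in the bottom libraries in order, against 814, 1037, 808 and 1192 CPM in top 1 to top 4. Every bottom library lay below every top library, as was so for 3.91% of all genes tested (3.31% had every bottom library above), and bottom 1 was the lowest of the 8. The means were 429 ± 170 CPM in bottom and 963 ± 186 CPM in top (SD, n = 4 each). The fit, which adjusts for batch, put bottom 2.33-fold lower (log2 fold change -1.22, SE 0.32). The edgeR adjusted p of Ccnd2 was 0.18, against 0.00344 before adjustment. The log2 fold change was -1.58 in batch 1 alone and -0.87 in batch 2 alone, and it had the same sign without each library in turn, at -1.40 to -0.96. DESeq2 gave an adjusted p of 0.0211, and limma-trend 0.0730. A different scaling of the libraries moved the median of all genes, at most to 0.34 (total counts with no scaling factor) and the value of Ccnd2 with it (-0.90). Relative to that median Ccnd2 stood between -1.23 and -1.21 under the 5 scalings tried. A scaling shifts all genes nearly alike, so this was close to fixed in advance and is no support for the difference. A gene annotated on the opposite strand of Ccnd2, 9330179D12Rik, had 22 counts over all 8 libraries, against 17418 counts of Ccnd2 in bottom and 27960 in top. Another opposite-strand gene, Gm43126, also overlaps exons of Ccnd2 and has no value under that symbol, so its reads may be mixed with those of Ccnd2.

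Ccnd1, which encodes cyclin D1, a cyclin of many dividing and connective tissue cells, stood at 15.5, 122, 94.0 and 111 CPM in bottom, against 39.3, 64.7, 52.3 and 70.0 CPM in top. In 3 bottom libraries it was above every top library, and in bottom 1 it was below all of them. The means were 85.5 ± 48.0 CPM in bottom and 56.6 ± 13.7 CPM in top (SD, n = 4 each). The fit with the batch as a covariate gave a log2 ratio of 0.57 with an SE of 0.55 (edgeR adjusted p = 0.813). Without bottom 1 the log2 fold change was 0.93, and without bottom 2 it was -0.10, with edgeR adjusted p from 0.30 to 0.971 over all omissions. Ccnd3, which encodes cyclin D3, stood at 6.23, 5.42, 20.5 and 42.2 CPM in bottom libraries, against 33.5, 9.17, 13.1 and 28.6 CPM in top. Its populations overlapped (edgeR adjusted p = 0.877, log2 fold change -0.63, SE 0.79). In batch 1 the means were 5.82 CPM in bottom and 21.3 CPM in top, and in batch 2 they were 31.4 CPM in bottom and 20.8 CPM in top. That difference between batches did not pass the test of the interaction (edgeR adjusted p = 0.740). An opposite-strand neighbour, Bysl, overlaps exons of Ccnd3 in GENCODE M21 and had 1211 counts over the 8 libraries. The labels do not say that the kit keeps strand, so reads of both genes may be mixed. The opposite-strand gene LTO1 likewise overlaps exons of Ccnd1 and has no value under that symbol, so its reads may be mixed with those of Ccnd1.

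The make-up of the D cyclin counts was then compared. Within a library, the share of a gene among the summed counts of Ccnd1, Ccnd2 and Ccnd3 does not depend on the scaling between libraries. Ccnd1 made up 7.42, 21.4, 13.7 and 16.6% of those counts in bottom 1 to bottom 4, against 4.44, 5.82, 5.99 and 5.42% in top 1 to top 4. Every bottom library was above every top library, with means of 14.8 ± 5.84% in bottom and 5.42 ± 0.70% in top (SD, n = 4 each). Bottom exceeded top by 9.27 percentage points within batch 1, by 9.45 within batch 2, and by 7.16 to 11.8 without each library in turn. Bottom 1 was closest to top: its 142 of 1913 counts give a 95% exact binomial interval of 6.29 to 8.69%, which overlaps the 5.45 to 6.57% of top 3. These intervals cover counting error only, since amplified reads are not independent molecules, and no test was run on the shares. The 3 shares sum to the whole, so a lower level of Ccnd2, which made up most of the counts, raises the share of Ccnd1 at an equal level, and the level of Ccnd1 itself overlapped. Ccnd2 made up 77.0 to 89.6% in bottom and 91.8 to 93.4% in top. Ccnd3 made up 0.95 to 6.35% in bottom and 0.82 to 3.78% in top, and these overlapped.

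**Figure D2:**
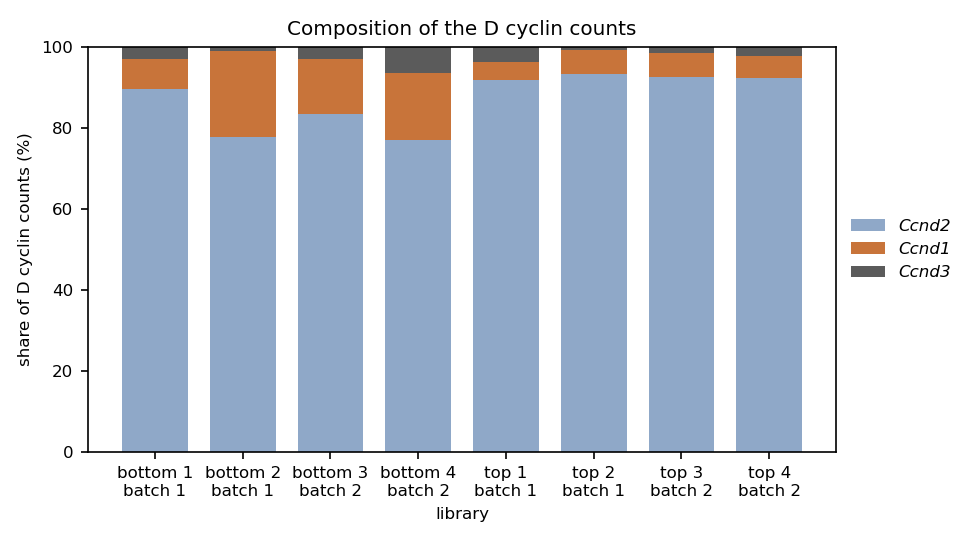
Share of Ccnd2, Ccnd1 and Ccnd3 in the summed D cyclin counts of each library, in percent, bottom libraries on the left and top libraries on the right. Ccnd1 takes 7.42 to 21.4% in bottom and 4.44 to 5.99% in top.

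Markers of other cells are given beside these values. The 8 fibroblast and stellate cell markers summed to 3.28, 182, 194 and 771 CPM in bottom 1 to bottom 4 and to 0.251 to 12.4 CPM in top, where Col1a1 and Thy1 were at 0. The 6 endothelial markers summed to 7.10 to 248 CPM in bottom and 0.124 to 8.26 CPM in top, where Cdh5, Kdr and Plvap were at 0. The 7 duct markers summed to 497 to 1103 CPM in bottom and 269 to 525 CPM in top. Bottom 1, where the share of Ccnd1 was lowest among the bottom libraries, had the least fibroblast signal of them and the most intestinal signal, at 29612 CPM over 8 markers, against 14.5 to 6964 CPM in the other bottom libraries and 52.8 to 1851 CPM in top, where Muc2 was at 0. The 9 leukocyte markers summed to 0.874 to 4.74 CPM in bottom, with Lyz2 at 0, and 4.65 to 14.4 CPM in top, with Laptm5 at 0, and the 6 acinar markers to 38.8 to 1076 CPM in bottom and 7.62 to 221 CPM in top. The fibroblast, endothelial, duct, acinar, intestinal and leukocyte sums overlapped between the populations. Among the bottom libraries the fibroblast order did not follow that of the Ccnd1 share. The part of these cells in the D cyclin values was not tested.

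Per length, Ccnd2 was the most abundant D cyclin in both populations. Divided by the longest coding transcript of each gene in GENCODE M21, levels were 67.7 ± 26.8 CPM per kb for Ccnd2 in bottom and 152 ± 29.4 CPM per kb in top (SD, n = 4 each). Ccnd1 had 22.9 ± 12.8 CPM per kb in bottom and 15.1 ± 3.67 in top, and Ccnd3 8.81 ± 8.15 in bottom and 9.98 ± 5.58 in top. The ranges of mean ± SD of Ccnd2 and Ccnd1 did not overlap in either population, and those of Ccnd1 and Ccnd3 did in both. Cdk4 came second to Ccnd2, at 29.8 CPM per kb in bottom and 31.7 in top, followed in bottom by Ccnd1 and then Cdkn1a (15.6) and in top by Cdkn1a (15.2) and Ccnd1. Cdkn1b (7.74 in bottom, 8.65 in top) was near Ccnd3. Ccne1 (1.51 in bottom, 3.03 in top) and Cdkn1c (1.46 in bottom, 0.371 in top) were lower, and Cdk6 stood at 0.0270 CPM per kb in bottom and 0.147 in top. The ranges of mean ± SD of neighbours from Cdk4 to Cdkn1b in this order overlapped, as did those of Ccnd2 and Cdk4 in bottom but not in top. Which transcripts the authors' annotation held is not given in the sources used here, so these levels and their order depend on the transcript taken. By the shortest coding transcript Ccnd3 had 67.2 CPM per kb in bottom and 76.1 in top, and Cdkn1a 35.1 in bottom and 34.3 in top, all above Ccnd1 at 22.9 in bottom and 15.1 in top. Ccnd2 then had 684 CPM per kb in bottom and 1536 in top.

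Cdk4, the kinase partner of the D cyclins in mouse beta cells, is shown with its promoter because it carries several copies of a short motif, the E-box CACGTG, which Myc family proteins bind. The 250 bases before its start are chr10:127063285-127063534, plus strand (RefSeq, GRCm38.p6), with each CACGTG in capitals.
Cdk4: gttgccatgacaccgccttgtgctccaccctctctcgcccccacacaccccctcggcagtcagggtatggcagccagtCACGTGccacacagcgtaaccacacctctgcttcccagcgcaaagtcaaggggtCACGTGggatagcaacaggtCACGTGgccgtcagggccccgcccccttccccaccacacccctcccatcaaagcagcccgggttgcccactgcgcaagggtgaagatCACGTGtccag
The motif, which reads the same on both strands, occurs 4 times here, at bases 79, 133, 153 and 240. It occurs at least once in 6.02% of 32851 promoter windows of this length and at least 4 times in 7 of them. Of the other members' windows, that of Cdk6 held 1 match. A match of letters is not a bound site. Cdk4 itself stood at 66.6, 112, 36.7 and 29.2 CPM in bottom, against 86.6, 77.7, 60.0 and 35.9 CPM in top. The populations overlapped and the batches did not, since all 4 libraries of batch 1 were above all 4 of batch 2. The means were 61.2 ± 37.7 CPM in bottom and 65.0 ± 22.4 CPM in top (SD, n = 4 each). The fit with the batch as a covariate gave a log2 ratio of -0.21 with an SE of 0.35 (edgeR adjusted p = 0.907). Its sign turned with total counts (0.13). Tspan31, on the opposite strand, overlaps exons of Cdk4 in GENCODE M21 and had 6934 counts over the 8 libraries, against 2475 for Cdk4 in bottom and 1932 in top, so part of either may belong to the other. Myc, in the list of regulators and named after its values were seen, stood at 0.546, 6.45, 1.47 and 2.41 CPM in bottom and 2.16, 0.628, 0 and 0.635 CPM in top (log2 fold change 1.92, SE 1.21, edgeR adjusted p = 0.674).

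Cdk6, the second D cyclin kinase, was near the limit of detection. It had 0, 0, 3 and 10 counts in bottom 1 to bottom 4, against 15, 0, 36 and 1 counts in top 1 to top 4. Zero counts allow a level of up to 0.328, 0.280 and 0.377 CPM in bottom 1, bottom 2 and top 2 (3 counts, counting error only). The populations overlapped, and 2 top libraries, top 1 and top 3, were above every bottom library. Of the summed counts of Cdk4 and Cdk6, Cdk6 made up 0 to 3.08% in bottom and 0 to 6.91% in top.

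Ccne1, which encodes cyclin E1 and acts with CDK2 after the D cyclins, was patchy. It had 0, 128, 0 and 1 counts in bottom, against 15, 52, 0 and 98 counts in top. In CPM these are 0, 12.0, 0 and 0.0927 in bottom and 2.16, 6.53, 0 and 15.6 in top, so both populations held libraries with clear signal and libraries at 0. The log2 fold change was -2.77 with an SE of 3.09 (edgeR adjusted p = 0.856), it ran from -7.22 without bottom 2 to 0.68 without top 4, and it was 0.44 in batch 1 alone. No direction was read from these values.

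Cdkn1a encodes p21, a main target of the DNA damage factor p53. One of its annotated starts has, within the 250 bases before it, a pair of ACATGT separated by 4 bases, the core letters of the known p53 element upstream of this gene, and it is shown here because p53 targets are compared with it below. The region is chr17:29090729-29090978, plus strand (RefSeq, GRCm38.p6), with the pair and its spacer in capitals.
Cdkn1a: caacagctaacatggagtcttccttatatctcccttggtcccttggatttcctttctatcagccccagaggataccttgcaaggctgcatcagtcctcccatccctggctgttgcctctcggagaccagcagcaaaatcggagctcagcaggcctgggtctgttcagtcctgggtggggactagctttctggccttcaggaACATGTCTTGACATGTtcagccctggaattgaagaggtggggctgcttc
The pattern searched, ACATGT, any 4 bases and ACATGT again, reads the same on both strands and occurs in 4 of the 32851 windows (0.0122%), Cdkn1a among them. Cdkn1a stood at 34.1, 22.7, 32.2 and 40.4 CPM in bottom, against 20.3, 22.6, 69.2 and 14.3 CPM in top. Of the top libraries, 3 were below every bottom library, the exception being top 3, which was the highest of the 8. That order rests on a near tie of top 2 (22.60 CPM) and bottom 2 (22.71 CPM), which counting error could turn. The means were 32.4 ± 7.32 CPM in bottom and 31.6 ± 25.3 CPM in top (SD, n = 4 each). The fit with the batch as a covariate gave a log2 ratio of 0.10 with an SE of 0.54 (edgeR adjusted p = 0.974). Without top 3 the log2 fold change was 0.75, and it was negative without bottom 1, top 1 or top 4 (to -0.17), in batch 2 alone (-0.19) and with library sizes that leave out hormone genes (-0.035).

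Cdkn1b, which encodes p27, an inhibitor that accumulates in resting cells, lay between 24.1 and 50.5 CPM in all 8 libraries. It stood at 35.0, 24.1, 41.4 and 40.5 CPM in bottom, against 36.7, 24.9, 45.5 and 50.5 CPM in top. Bottom 2 and top 2 were the lowest libraries of their populations, which overlapped. The means were 35.2 ± 7.94 CPM in bottom and 39.4 ± 11.2 CPM in top (SD, n = 4 each). The fit with the batch as a covariate gave a log2 ratio of -0.14 with an SE of 0.37 (edgeR adjusted p = 0.943), or of 0.19 with total counts. Cdkn1c, which encodes the imprinted inhibitor p57, had 33, 80, 0 and 0 counts in bottom, against 0, 1, 0 and 17 counts in top. Of the summed counts of the 3 Cip/Kip genes, Cdkn1a made up 45.6 ± 3.58% in bottom and 41.1 ± 16.7% in top (SD, n = 4 each), with 60.3% in top 3 and 21.1% in top 4. All bottom counts of Cdkn1c came from batch 1, and 17 of its 18 top counts from top 4 in batch 2. Cdkn2a, whose locus encodes p16 and the p53 activator p19ARF, had 1 count in bottom, in bottom 3, and 0 counts in top, which allows up to 0.102 CPM over the top libraries. The files give 1 value for the gene, so p16 and p19ARF cannot be read apart.

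**Figure D3:**
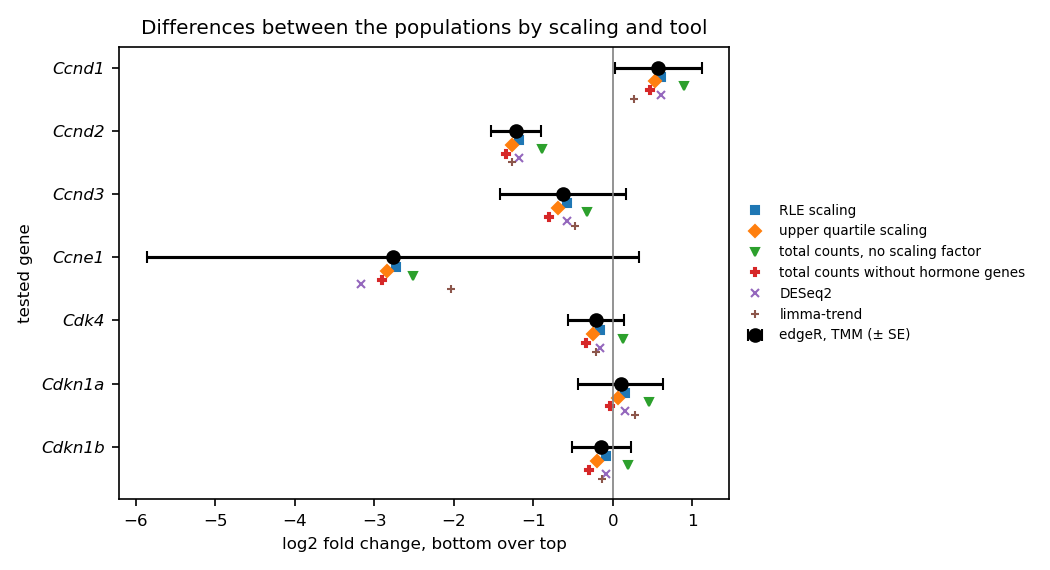
Log2 fold change (bottom over top) of the 7 tested genes. Black points with bars are edgeR values with TMM scaling and their SE, and the other symbols are other scalings and tools. Ccnd2 lies left of 0 under all of those shown (-1.35 to -0.90), while Cdk4 and Cdkn1b cross 0 with total counts and Cdkn1a crosses it when hormone genes are left out.

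Other genes of the G1 network were read from 6 lists of 98 genes, of which 76 were tested. They were chosen with earlier results of these data known. Of the 76, 1 fell in bottom, as did 0.162% of all genes tested, and none rose, where 0.282% of all genes tested did. An unadjusted p under 0.05 was found for 10 of the 76 (13.2%, against 10.3% of all genes tested). The gene that fell was Prlr, the prolactin receptor, through which lactogens drive beta cell growth in pregnant mice and which is known to raise Ccnd2. Prlr stood at 101, 203, 216 and 366 CPM in bottom, against 835, 859, 801 and 1782 CPM in top. The populations did not overlap, and bottom 1 was the lowest library for Prlr as for Ccnd2. Bottom 1 also had the lowest beta cell marker sum (38729 CPM), and a link between Prlr and Ccnd2 was not tested. The means of Prlr were 222 ± 109 CPM in bottom and 1069 ± 476 CPM in top (SD, n = 4 each). The fit put bottom 4.97-fold lower, a log2 ratio of -2.31 with an SE of 0.35 (edgeR adjusted p = 0.0339). The call was kept without bottom 1 or top 3 and lost without any 1 of bottom 2, bottom 3, bottom 4, top 1, top 2 or top 4, with adjusted p up to 0.132, while its log2 fold change ran from -2.55 to -2.10. DESeq2 (adjusted p = 2.89e-07) and limma-trend (adjusted p = 0.00806) called it too. The log2 fold change of Prlr was -2.50 in batch 1 alone and -2.14 in batch 2 alone, where it was not called (edgeR adjusted p = 0.324 and 0.254), nor was it without the batch term (0.0640).

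Its list, known regulators of the G1 genes in beta cells, held 17 tested genes with Prlr included and a median log2 fold change of -0.43. Of the 17, 4 had populations that did not overlap, Prlr among them, where 7.22% of all genes tested do not overlap. The same 4 had an unadjusted p under 0.05 (23.5%, against 10.3% of all genes tested), in a list chosen with earlier results known. The other 3 follow. Tcf7l2, a factor of Wnt signalling, averaged 75.2 ± 29.1 CPM in bottom and 24.3 ± 13.9 CPM in top (edgeR adjusted p = 0.155, log2 fold change 1.73, SE 0.43). Tgfbr1, a receptor of TGF-beta, averaged 21.2 ± 15.9 CPM in bottom and 65.2 ± 14.7 CPM in top (log2 fold change -1.98, SE 0.50, edgeR adjusted p = 0.164). Bmi1, a polycomb protein known to repress Cdkn2a in beta cells, averaged 24.4 ± 2.88 CPM in bottom and 58.0 ± 17.8 CPM in top (edgeR adjusted p = 0.249, log2 fold change -1.22, SE 0.36). It was named after its values were seen.

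Among the remaining G1 cyclins, kinases and INK4 genes none of 6 tested passed and none had an unadjusted p under 0.05 (median log2 fold change -0.09). Cdkn2c, which encodes the INK4 protein p18, averaged 2.62 ± 2.99 CPM in bottom and 12.0 ± 6.28 CPM in top (log2 fold change -2.23, SE 1.27, edgeR adjusted p = 0.631). With 1 and 4 counts in bottom 1 and bottom 3, Cdkn2c passed the low-count filter through the top libraries, so that filter set its direction in part. Cdk7, the kinase that activates other CDKs, averaged 44.6 ± 27.0 CPM in bottom and 54.7 ± 11.3 CPM in top (edgeR adjusted p = 0.864). Pocket proteins and E2F factors had 0 calls among 10 and a median of 0.18. E2f6, a repressor of the E2F family, stood at 3.50 to 12.2 CPM in bottom and 17.1 to 36.9 CPM in top, without overlap (log2 fold change -1.49, SE 0.62, edgeR adjusted p = 0.436). Rb1, the retinoblastoma gene, averaged 35.1 ± 10.5 CPM in bottom and 57.0 ± 17.4 CPM in top (log2 fold change -0.72, SE 0.38, edgeR adjusted p = 0.592). In the list of turnover and activation of G1 regulators none of 10 was called, with a median of -0.23. The smallest p there belonged to Cdc37, a cochaperone of CDK4, at 8.39 ± 3.77 CPM in bottom and 15.4 ± 7.34 CPM in top (edgeR adjusted p = 0.723), and next to Cks1b, a cofactor in p27 breakdown, at 21.5 ± 13.7 CPM in bottom and 34.7 ± 22.2 CPM in top (edgeR adjusted p = 0.834).

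The list of p53 and its targets had 20 tested genes, 0 calls and 3 with an unadjusted p under 0.05 (15.0%, against 10.3% of all genes tested), at a median log2 fold change of 0.48. Plk2, a polo-like kinase, averaged 59.3 ± 23.5 CPM in bottom and 23.0 ± 21.3 CPM in top (log2 fold change 1.46, SE 0.52, edgeR adjusted p = 0.350). Pmaip1, the proapoptotic gene Noxa, stood at 39.0, 25.9, 4.32 and 3.06 CPM in bottom, against 1.15, 0, 0.618 and 1.91 CPM in top (edgeR adjusted p = 0.427, log2 fold change 3.64, SE 1.49), without overlap. Pmaip1 passed the low-count filter only through the bottom libraries, so that filter set its direction in part. Genes of S, G2 and M phase had 0 calls among 13 tested of 24, 12 of the 13 were on the positive side (as were 5877 of all 11721 genes tested), and the median log2 fold change was 1.06. That median is the value of Mcm2 (SE 1.93), named after its values were seen. Its means were 7.92 CPM in bottom and 8.80 CPM in top. Rrm2, a subunit of ribonucleotide reductase, stood at 4.26, 12.4, 11.0 and 1.67 CPM in bottom, against 0, 0.126, 0.124 and 0 CPM in top, without overlap (edgeR adjusted p = 0.0939). It passed the low-count filter only through the bottom libraries, so its direction was set in part by that filter. The proliferation marker Mki67 stood at 0.218, 63.6, 3.58 and 13.1 CPM in bottom, against 1.44, 10.3, 0.371 and 0 CPM in top (edgeR adjusted p = 0.482), so most of its signal lay in bottom 2. Bottom 2 was also the highest library for Mcm7 (51.3 CPM), Ccna2 (31.9 CPM), Cdk1 (9.44 CPM) and Rrm2. The same held for Pcna (110 CPM), Mcm5 (15.5 CPM) and Mcm6 (18.1 CPM). It was not the highest for Top2a, Mcm2, Mcm4, Tyms or Birc5. This was looked at after the values were seen, and the share of all genes tested that were highest in bottom 2 was not computed.

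**Figure D4:**
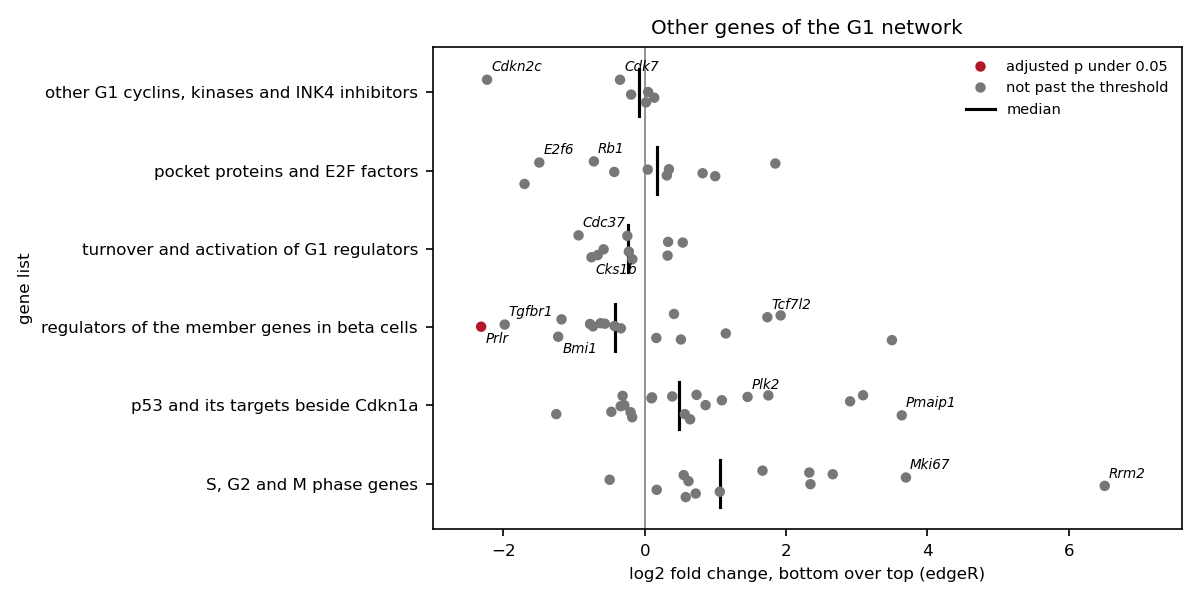
Log2 fold change (bottom over top, edgeR) of the 76 tested genes of 6 lists, 1 point a gene, with list medians as black bars. Prlr, in red, is the gene past the adjusted threshold, and the medians run from -0.43 (regulators) to 1.06 (S, G2 and M phase genes).

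Genes most like Ccnd2 and Ccnd1 across the 8 libraries were found by the mean absolute difference of log2(CPM + 1), each gene centred on its own mean, among 8232 genes of at least 10 CPM. For Ccnd2 these were Prnp, the prion protein gene (difference 0.19), Atp6ap2, the prorenin receptor and proton pump accessory gene (0.20), and Zranb2, a splicing factor gene (0.21). Prnp averaged 302 CPM in bottom and 578 CPM in top, Atp6ap2 210 CPM in bottom and 405 CPM in top, and Zranb2 67.2 CPM in bottom and 139 CPM in top. None of the 3 passed the edgeR test (adjusted p from 0.214 to 0.274). For Ccnd1 they were Xpc, a DNA repair gene (0.19), Tcf20, a transcriptional coregulator (0.20), and Nfasc, the adhesion gene neurofascin (0.26). Their means differed less, at 15.6 CPM in bottom and 9.91 CPM in top for Xpc, 13.0 CPM in bottom and 10.0 CPM in top for Tcf20, and 43.5 CPM in bottom and 36.6 CPM in top for Nfasc.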

How the data were processed

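RNA was profiled in 8 libraries made with the SMARTer Ultra Low and Nextera XT kits, per the labels' protocols. The deposited values were expected counts, RSEM's estimates of each gene's reads, in which ambiguous reads are divided among genes. Per the submitters' processing notes, RSEM, edgeR and the build mm9 were used. Aligner, annotation and versions are not given in the sources used here. Deposited library tables and the series table differed by 0 over 23366 genes.

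Expected counts (34.8% of values not whole) were rounded, filtered by filterByExpr and scaled by TMM, and 11721 genes were tested with edgeR 4.0.16 in R 4.3.3 (quasi-likelihood, batch as covariate). P-values were adjusted by Benjamini-Hochberg over all genes tested and called under 0.05. SE is the absolute log2 fold change over the root of the F statistic. limma 3.58.1, DESeq2 1.42.0, other scalings and filters, single batches and omissions of a library were alternatives. The test was checked on simulated counts that had less spread between libraries than these data and no batch effect. That check therefore does not give its error rate or power here. Promoters are RefSeq sequences on GRCm38.p6, another build than the files', matched by symbol for 7 of the 10 genes, and transcript lengths are from GENCODE M21. The members and all lists were chosen with earlier results of these data known. Named by rule are all members, of each list the called genes and the 2 others with the smallest p, and of each marker list its sum and those at 0. Outside that rule, Myc, Bmi1, Mdm2 and further S, G2 and M phase genes were named after their values were seen. The hormone genes Gcg, Sst, Ppy, Ins1 and Ins2, genes that overlap a member and genes most like Ccnd2 and Ccnd1 are named as well.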

Additional observations from a re-analysis of the deposited data

Results flagged for a closer look

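In groups of 4 libraries, 1 library can stand apart: its gap to the nearest other library is then larger than Dixon's 95% limit for its share of the group's range. Chance gives this in about 1 of 20 groups of normally distributed values. That rate does not hold for groups mostly at or near 0 counts, as those of Ccne1, Cdkn1c and Cdkn2a below. Of 28 groups examined, 4 had such a library. Cdkn1a stood at 69.2 CPM in top 3, against 14.3 to 22.6 CPM in the other top libraries. Top 3 was also the highest top library for 12 of the 19 tested p53 targets (63.2%), as for 28.8% of all genes tested, among them Mdm2, a target that restrains p53, at 99.5 CPM against 23.9 to 36.5 CPM. That count was taken after the value of Cdkn1a was seen. Top 3 also had the highest acinar sum of the top libraries (221 CPM, against 7.62 to 40.4 CPM), the highest alpha sum (138107 CPM) and the lowest insulin share (26.6% of counts), whose part in this was not tested. Ccne1 stood at 12.0 CPM in bottom 2, against 0 to 0.0927 CPM in the other bottom libraries. Cdkn1c stood at 2.70 CPM in top 4, against 0 to 0.126 CPM in the other top libraries. Cdkn2a stood at 0.105 CPM in bottom 3, which is 1 count.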

How the results depend on the processing

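edgeR called no member with all libraries or without any 1 of them, and DESeq2 called 1, Ccnd2, which kept its negative sign in all 21 alternatives. Of all genes 52 were called, against 589 by DESeq2, 137 by limma-trend, 204 with no low-count filter, 32 without the batch term, 2 in batch 1 alone, 2 in batch 2 alone and 8 to 60 without each library in turn (60, 33, 23 and 11 without bottom 1 to 4, and 12, 8, 28 and 14 without top 1 to 4). Log2 fold changes turned for Cdk4 (0.13) and Cdkn1b (0.19) with total counts, for Cdkn1a (-0.035) with hormone genes left out, for Ccne1 (0.44) and Cdk4 (0.10) in batch 1 alone, and for Ccnd3 (0.60) and Cdkn1a (-0.19) in batch 2 alone. Without each library in turn they ran from -0.10 to 0.93 for Ccnd1, -1.16 to 0.066 for Ccnd3, -7.22 to 0.68 for Ccne1, -0.43 to 0.011 for Cdk4 and -0.17 to 0.75 for Cdkn1a. With total counts the medians of the turnover, p53 and other G1 lists were 0.10, 0.81 and 0.24, those of the regulators, the pocket and E2F and the S, G2 and M lists -0.12, 0.50 and 1.36, as the median of all genes moved to 0.34.

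Titles share the number 1 in each batch. With a replicate block of batch and title number 0 genes were called, with Ccnd1 at -0.24 and Cdkn1a at -0.18, and Prlr stood at -2.47 with an adjusted p of 0.429. The populations meet inside a block for number 1 alone, and the labels give no more than shared numbers. Same-numbered libraries deviated from their group means with correlations of 0.22 and 0.12 over genes, against -0.031 and 0.042 for the other top library of the batch. Ccne1, Cdk6 and Cdkn1c had counts in some libraries and 0 in others, and depth limits what they can show. The causes of these changes were not tested.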
